A study of Caenorhabditis elegans with 6 samples.

Results

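The NAD salvage genes of the nematode Caenorhabditis elegans were followed in cells sorted from the male tail, with or without the Argonaute isoform csr-1a. The set was chosen by gene name and holds 6 of the 46932 genes in the count table: pnc-1, nprt-1, nmat-1, nmat-2, qns-1 and nmrk-1. All 6 were found, and 5 of them had enough reads to be tested.

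NAD is the coenzyme that carries electrons in metabolism, and enzymes that split it release nicotinamide. Worms recycle nicotinamide in a chain of steps. The nicotinamidase PNC-1 turns it into nicotinic acid, the phosphoribosyltransferase NPRT-1 makes the mononucleotide, an adenylyltransferase (NMAT-1 or NMAT-2) makes the dinucleotide, and the NAD synthetase QNS-1 adds the amide. The kinase NMRK-1 feeds in nicotinamide riboside by another route. In C. elegans, loss of pnc-1 is known to delay gonad development and to kill cells of the uterus. The gene has a further role here, because its promoter drove a reporter used to sort the cells.

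The csr-1a mutant group (3 libraries) carried gfp::sl2::2xflag::aid::csr-1a_delta, and the WT group (3 libraries) carried gfp::sl2::2xflag::aid::csr-1a. CSR-1 is an Argonaute protein, which binds small RNAs, and the study asked how loss of csr-1a alters the male tail. Both groups also carried him-8, a mutation that yields many males, and both held Ex(pnc-1p::wrmScarlet) and Ex(pcs-1p::wrmScarlet). These are extrachromosomal arrays with a red fluorescent protein, and such arrays are not passed to every cell or animal. In both groups the parents had gone through heat stress as late L4 larvae, and the cells came from young adult males. The labels name the sorted cells as those of the rectal valve and rectal gland, and each library was made from 5000 of them. Libraries of a group are called biological replicates without mention of separate cultures, so p-values measure the spread between these libraries. Neither the purity of the sort nor the gate used for each group is stated in the sources used here.

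Total counts ran from 22470932 to 47890863 in the mutant and from 17748698 to 26577422 in WT. Ribosomal RNA took 74.4% to 78.4% of them, which left at least 4542195 counts per library for other genes. Mutant replicate 2 and WT replicate 3 stood apart, with 12757 and 14012 genes detected, where the other libraries had 18071 to 19083. The rectal marker list without pcs-1 took 0.0285% to 0.0300% of non-ribosomal counts in the mutant and 0.0208% to 0.0248% in WT. All 14 genes of that list had reads and 10 could be tested. Among its regulators, dve-1 had 8.97 to 12.2 CPM in the mutant and 8.22 to 10.4 CPM in WT. The regulator sox-2 had 3.64 to 6.515 CPM in the mutant and 3.58 to 5.26 CPM in WT, and the groups overlapped for both genes. Differences in mean were larger for tlp-1 (3.39 CPM in the mutant, 1.21 CPM in WT) and sem-4 (5.71 and 3.17 CPM), where the groups overlapped too. Too few reads to test were found for egl-38, ceh-6, che-14 and mab-9, the last with 0 counts in the mutant and 0 to 2 in WT. For lin-48, mutant replicate 2 had 0 counts, and for pax-3, WT replicate 3 had 0. The coelomocyte list (scavenger cells of the body cavity) took 0.756% to 1.14% in the mutant and 1.63% to 1.67% in WT. In bulk samples, fewer cells of a type and less RNA per cell cannot be told apart.

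Of the NAD salvage genes, pnc-1, which encodes the first enzyme of the route, rose 3.20-fold in the mutant. The second enzyme, nprt-1, had higher values in all 3 mutant libraries than in any WT library but did not pass. For qns-1, nmat-2 and nmrk-1 the groups overlapped. In the set, 1 of 5 tested members was called higher and 0 lower, where 4.04% of all 11968 genes tested were called higher and 1.55% lower. The groups did not overlap in 2 of the 5, both higher in the mutant, where 12.6% of all genes tested showed this. Changes are log2 fold changes, mutant over WT, with a standard error after the ± sign. Adjusted p-values are those of the quasi-likelihood test of edgeR, corrected over all genes tested by the Benjamini-Hochberg method. The median log2 fold change was -0.10 over the 5 members and 0.01 over all genes tested.

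**Figure D1:**
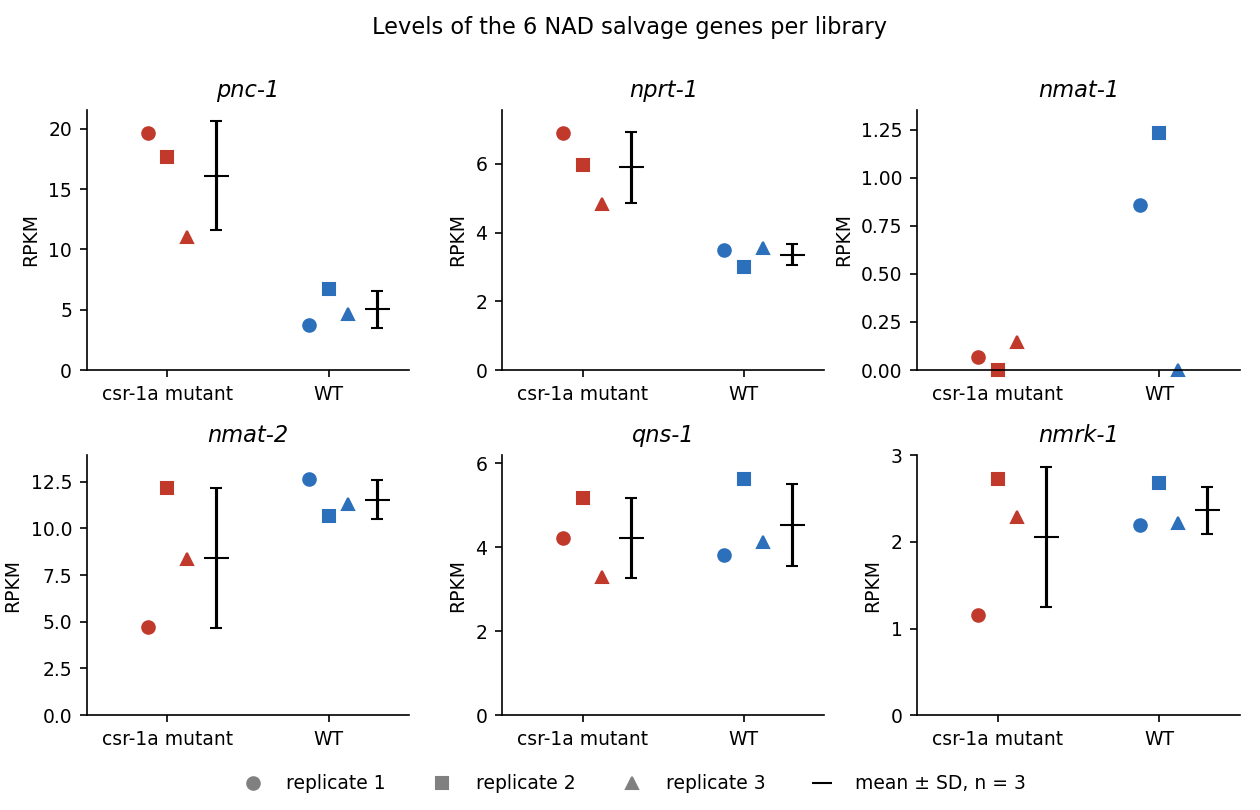
Level of each NAD salvage gene (RPKM, vertical axis, with its own scale per panel) in each library of the csr-1a mutant and WT groups. Symbols stand for replicates and bars for the mean ± SD of 3 libraries, except for nmat-1, which had too few reads. The mutant libraries lie above all WT libraries for pnc-1 and nprt-1, and the groups overlap for the other genes.

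The gene pnc-1 of the nicotinamidase (WBGene00021395, on the plus strand of chromosome IV in build WBcel235, 184484 to 192151) was counted 1330, 636 and 354 times in mutant replicates 1, 2 and 3, against 129, 188 and 112 times in WT replicates 1, 2 and 3. Scaled to a common library size as normalised counts (CPM), this came to 28.0, 25.2 and 15.7 CPM in the mutant and 5.31, 9.61 and 6.62 CPM in WT. Every mutant library exceeded every WT library, and the smallest gap lay between mutant replicate 3 and WT replicate 2. Mutant over WT, the log2 fold change was 1.68 ± 0.30, with a 95% interval from 1.03 to 2.33, or 2.04-fold to 5.03-fold (adjusted p = 0.00618). The fold stayed between log2 1.52 and 1.94 when single libraries were left out, with adjusted p from 0.00481 to 0.0381. Leaving out mutant replicate 2 and WT replicate 3 together, the value was 1.601 ± 0.39 and the call ended (adjusted p = 0.0738; range over all alternatives 9.27e-09 to 0.0738).

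The annotation gives pnc-1 3 transcripts with separate starts, at 0, 1770 and 5002 bases from the gene's first base, that share their later exons. In worms the longest form is known to be secreted, and the counts, made per gene, do not separate the forms. No annotated exon of another gene overlaps those of pnc-1. The noncoding gene Y38C1AA.15 lies within its span, outside its exons, and had 0 counts in the mutant libraries and 1, 0 and 24 counts in WT replicates 1, 2 and 3. The protein-coding neighbours, tcl-2 on one side and Y38C1AA.12 on the other, were named after their values were seen. They had log2 fold changes of -0.91 ± 1.124 (adjusted p = 0.795) and -0.50 ± 0.32 (adjusted p = 0.511). The nicotinamidase paralogue pnc-2 was counted at 0, 0 and 0.133 CPM in the mutant and at 0.165, 0 and 0 CPM in WT, too low to test.

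The other sort reporter used the promoter of pcs-1 (WBGene00003960, chromosome II, 11574941 to 11577740), the phytochelatin synthase that makes metal-binding peptides. It stood at 42.3, 23.4 and 25.1 CPM in the mutant and at 10.6, 12.7 and 16.8 CPM in WT, and its log2 fold change was 1.19 ± 0.27 (adjusted p = 0.0259). Leaving out WT replicate 1, WT replicate 2 or mutant replicate 1 ended its call, with log2 fold changes of 1.09, 1.15 and 0.88 and adjusted p of 0.0964, 0.0759 and 0.0691. The genes behind both reporters were therefore each higher in all mutant libraries than in any WT library. The ratio of pnc-1 to pcs-1 per kilobase was 0.845, 1.38 and 0.801 in the mutant and 0.640, 0.970 and 0.505 in WT, so that the groups overlapped in this ratio.

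Markers of other cells moved in the same libraries. All 20 body wall muscle markers were called higher in the mutant, and they took 4.54% to 9.68% of non-ribosomal counts in mutant libraries and 0.454% to 0.515% in WT libraries. The hypodermis list, with 1 of 7 tested members called (the cuticle collagen rol-6), took 0.0288% to 0.0402% in the mutant and 0.0108% to 0.0150% in WT, with dpy-10 at 0 throughout. Without rol-6 it took 0.00598% to 0.00801% in the mutant and 0.00418% to 0.00681% in WT, and the groups overlapped. The pharynx list, with 0 of 8 called by edgeR and 5 at an unadjusted p under 0.05 (a level reached by 16.9% of all genes tested), took 0.0278% to 0.0727% in the mutant and 0.0154% to 0.0267% in WT. Of the coelomocyte list 6 of 7 were called lower and 1 higher. Of the rectal list 1 of 10 tested was called, namely pcs-1, and 2 had an unadjusted p under 0.05 in edgeR (pcs-1 and tlp-1). Log2 fold changes in that list were positive for 9 genes and negative for 1, with a median of 0.64, beside 0.01 over all genes tested. The excretory list had 1 of 8 called higher, and the intestine, neuron and germline lists had 0 of 8, 0 of 10 and 0 of 9 called by edgeR, with 1, 5 and 1 at an unadjusted p under 0.05. Of these, the intestine gene ifb-2 and the germline gene msp-31 were lower in the mutant. The neuron genes unc-119, egl-3, egl-21 and snt-1 were lower as well, and unc-31 was higher. Among mutant libraries the muscle share was highest in replicate 1 (9.68%) and alike in replicates 2 and 3 (4.54% and 4.91%). The part of these other cells in the level of pnc-1 was not tested.

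**Figure D2:**
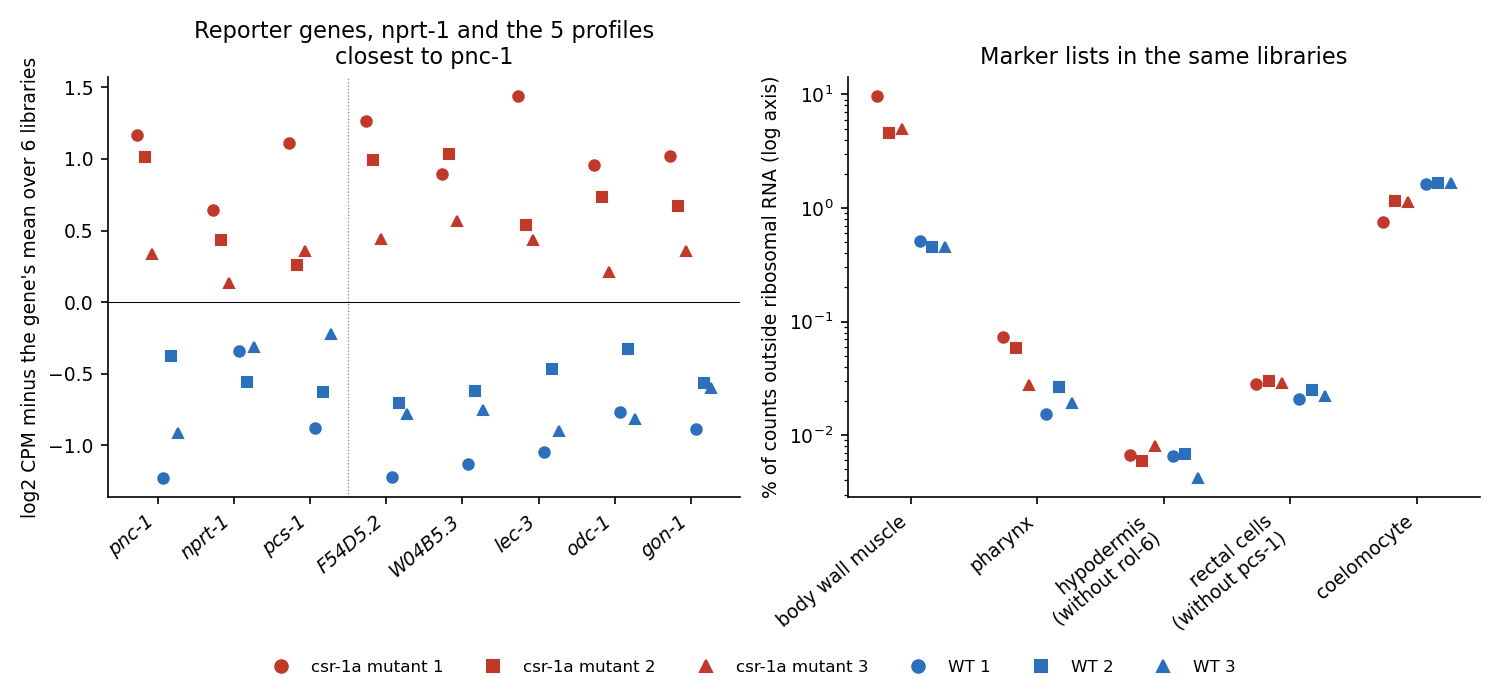
Left, log2 CPM of each gene minus its mean over the 6 libraries, for pnc-1, nprt-1, pcs-1 and the 5 genes with the profile closest to pnc-1. Right, the share of counts outside ribosomal RNA (log axis) taken by 5 marker lists in each library, the hypodermis list without rol-6 and the rectal list without pcs-1. Each point is a library, and the muscle list spans 4.54% to 9.68% in the mutant and 0.454% to 0.515% in WT.

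The second step of the route is made by nprt-1 (WBGene00021882, chromosome IV, 2872023 to 2890451, minus strand), which couples nicotinic acid to phosphoribose. It had 14.4, 12.5 and 10.1 CPM in mutant replicates 1, 2 and 3 and 7.29, 6.29 and 7.45 CPM in WT replicates 1, 2 and 3. The groups did not overlap, and the WT values lay close together. Its log2 fold change of 0.82 ± 0.25, with a 95% interval from 0.26 to 1.37, did not pass over all genes (adjusted p = 0.0939). It passed only where genes were kept at 5 CPM or more in at least 3 libraries, which tested 5050 genes (adjusted p = 0.0387; range over all alternatives 0.0387 to 0.282). The gene dml-1 lies within an intron of nprt-1 and had 9 to 22 counts in the mutant and 3 to 11 in WT.

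The adenylyltransferase step has a gene pair. The gene nmat-2 (WBGene00009176, chromosome I, 9305751 to 9306844, minus strand) had 3.76, 9.70 and 6.65 CPM in the mutant and 10.1, 8.48 and 8.99 CPM in WT. Mutant replicate 1 was the lowest library and mutant replicate 2 lay within the WT range. The log2 fold change of -0.46 ± 0.34 did not pass (adjusted p = 0.606), with a 95% interval from -1.22 to 0.29. It came to -0.16 without mutant replicate 1 and to -0.78 without mutant replicate 2, the ends of the range with single libraries left out. Its partner nmat-1 (WBGene00012295, chromosome X, 12014249 to 12018043, minus strand) was counted 3, 0 and 3 times in the mutant libraries and 19, 22 and 0 times in the WT libraries, too few for the test. The libraries at 0 were mutant replicate 2 and WT replicate 3, those with the fewest genes detected, where a count of 0 allows up to 3 counts, or 0.119 and 0.177 CPM. The summed counts were 6 in the mutant (exact 95% Poisson interval 2.202 to 13.1) and 41 in WT (29.4 to 55.6), intervals that cover counting error only and not the spread between libraries. The 41 reads in WT came from replicates 1 and 2 and the 6 reads in the mutant from replicates 1 and 3.

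The last enzyme, the NAD synthetase gene qns-1 (WBGene00007698, chromosome IV, 10214986 to 10219308, minus strand), had 9.29, 11.4 and 7.23 CPM in the mutant and 8.404, 12.4 and 9.10 CPM in WT. The groups overlapped throughout. Its log2 fold change was -0.10 ± 0.28 (adjusted p = 0.925), and its 95% interval from -0.71 to 0.51 left room for 0.613-fold to 1.42-fold of WT. An exonic stretch of 71 bases, 3.22% of the exons of qns-1, is shared with col-124 on the opposite strand, and reads there cannot be told apart without a stated strand setting.

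The riboside kinase gene nmrk-1 (WBGene00020842, chromosome I, 6105863 to 6107715, minus strand) had the lowest level per length of the tested members. It stood at 1.32, 3.13 and 2.62 CPM in the mutant and 2.51, 3.07 and 2.54 CPM in WT, so that mutant replicate 1 alone lay below the rest. The log2 fold change was -0.21 ± 0.47 (adjusted p = 0.904), with a 95% interval from -1.24 to 0.83. With 43 to 79 counts per library, changes inside that interval were not detectable at this depth and spread.

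To set genes beside each other, CPM was divided by the length of each gene's annotated exons, which gives RPKM, the CPM per kilobase of exon. In the mutant pnc-1 was the highest, at 16.1 ± 4.51 RPKM (SD, n = 3), followed by nmat-2 at 8.41 ± 3.73, nprt-1 at 5.90 ± 1.03, qns-1 at 4.22 ± 0.947 and nmrk-1 at 2.06 ± 0.812 RPKM. In WT nmat-2 was the highest, at 11.5 ± 1.03 RPKM (SD, n = 3), followed by pnc-1 at 5.04 ± 1.54, qns-1 at 4.53 ± 0.973, nprt-1 at 3.35 ± 0.302 and nmrk-1 at 2.36 ± 0.272 RPKM. By the ranges over libraries, neighbours in the mutant order overlapped except qns-1 and nmrk-1. Within each mutant library pnc-1 lay above nmat-2, nprt-1 above qns-1 and qns-1 above nmrk-1, while nmat-2 and nprt-1 changed places in replicate 1. By the ranges in WT, pnc-1 and qns-1 overlapped, and the other neighbours did not. Among 23479 genes with a count outside ribosomal RNA, pnc-1 ranked 1133 by mean RPKM in the mutant and 3750 in WT, nprt-1 ranked 3394 in the mutant and 5201 in WT, and nmat-2 ranked 2333 in the mutant and 1670 in WT.

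Within the set, pnc-1 took a larger share in every mutant library than in any WT library. Transcripts of pnc-1 made up 53.5%, 40.4% and 36.8% of the summed RPKM of the 6 genes in mutant replicates 1, 2 and 3, against 13.95%, 22.5% and 18.0% in WT replicates 1, 2 and 3. The share of nmat-2 was 12.9%, 27.8% and 27.9% in the mutant and 47.3%, 35.6% and 43.6% in WT. The nmat-2 share falls by construction where pnc-1 is higher. Of the other 5 genes without pnc-1, nmat-2 made up 27.7%, 46.7% and 44.2% in the mutant and 55.02%, 45.9% and 53.2% in WT, and these shares overlapped. The sum over the other 5 genes without pnc-1 was 17.05, 26.05 and 18.9 RPKM in the mutant and 23.02, 23.2 and 21.2 RPKM in WT, where the groups overlapped. These shares come from the same counts as the changes above and are a description.

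**Figure D3:**
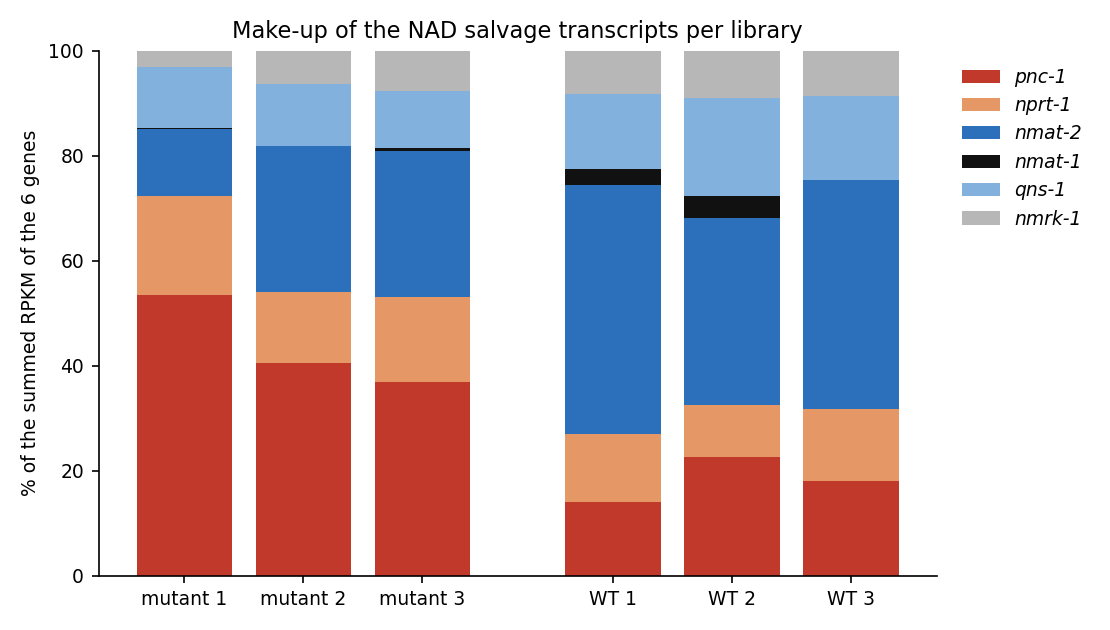
Share of each NAD salvage gene in the summed RPKM of the 6 genes (vertical axis, percent) in each library, mutant libraries at left and WT libraries at right. The pnc-1 share runs from 36.8% to 53.5% in the mutant and from 13.95% to 22.5% in WT.

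The level of pnc-1 was set against its partners as the log2 ratio of pnc-1 to each of the 4 other tested members. The ratio to qns-1 was 4.66, 3.42 and 3.36 in mutant replicates 1, 2 and 3 and 0.979, 1.20 and 1.13 in WT replicates 1, 2 and 3. The mutant minus WT difference of the mean log2 ratio was 1.78 for qns-1, 2.23 for nmat-2, 1.96 for nmrk-1 and 0.87 for nprt-1. In all 4 ratios the mutant libraries lay above the WT libraries. An exact two-sided permutation test gave p = 0.1 for each (adjusted p = 0.1 over the 4 ratios), which is the smallest p that 3 against 3 libraries allow, so that the test could not pass 0.05. The 4 ratios share the values of pnc-1 and are a description. The ratio to nprt-1 was 2.85, 2.96 and 2.28 in the mutant and 1.07, 2.24 and 1.30 in WT, so that mutant replicate 3 and WT replicate 2 nearly met.

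By root mean square difference of centred log2 CPM over the 6 libraries, the 5 genes closest to pnc-1 among 4945 candidates were F54D5.2 (0.155), W04B5.3 (0.192), the galectin gene lec-3 (0.241), the ornithine decarboxylase gene odc-1 (0.251) and gon-1 (0.254), a secreted metalloprotease needed for gonad migration. Of these, F54D5.2 lies beside pcs-1 and meets it tail to tail, with 60 bases of exon in common. It had 36.4, 30.2 and 20.5 CPM in the mutant and 6.51, 9.30 and 8.81 CPM in WT. Its log2 fold change was 1.83 ± 0.26 (adjusted p = 0.00155). By the same measure pcs-1 stood at 0.450 and would rank 95 among the candidates, and nprt-1 stood at 0.550 and would rank 222. The genes qns-1, nmrk-1 and nmat-2 lay at 0.901, 1.119 and 1.27. The closest genes were picked for their likeness over these libraries, so their changes are a description.

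Of 28 matched genes in lists of NAD synthesis from tryptophan, NAD-consuming enzymes and other NAD handling, 20 could be tested, and 1 was called higher and 0 lower. The first 2 lists also held related genes outside those steps, namely the kynurenine aminotransferases nkat-1 and nkat-3 and the glycohydrolases parg-1 and parg-2. The share called higher over all genes tested was 4.04%. An unadjusted p under 0.05 in edgeR's quasi-likelihood test was reached by 3 of the 20 genes, where 16.9% of all genes tested reached it. Their median log2 fold change was 0.13, beside 0.01 over all genes tested.

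**Figure D4:**
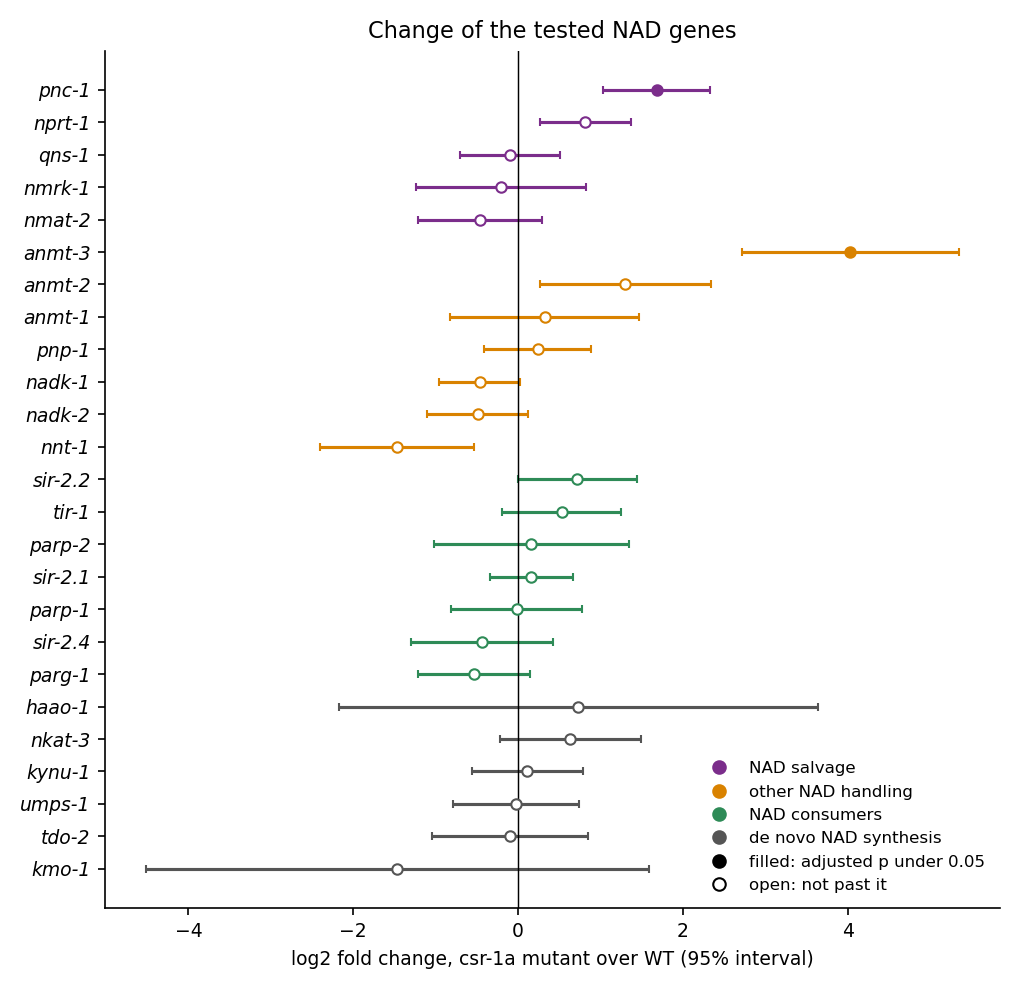
Log2 fold change, csr-1a mutant over WT (horizontal axis), with its 95% interval for every tested NAD gene, coloured by list. Filled points have an adjusted p under 0.05, which holds for pnc-1 (1.68) and anmt-3 (4.03).

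The gene called was anmt-3 (WBGene00011573, chromosome V, 9956879 to 9958331, minus strand), of the family of amine N-methyltransferases, whose relative ANMT-1 is known in worms to methylate nicotinamide and so to draw it away from salvage. It had 875, 453 and 307 counts in the mutant and 32, 31 and 1 counts in WT, or 18.4, 17.9 and 13.6 CPM in the mutant and 1.32, 1.58 and 0.0591 CPM in WT. All mutant libraries lay far above all WT libraries. Its log2 fold change was 4.03 ± 0.60 (adjusted p = 0.00216), and it stayed past the threshold in all 16 alternatives, at 3.51 to 4.62. The gene mam-5 on the opposite strand shares 50 bases of exon and had 128, 11 and 9 counts in the mutant and 1, 4 and 0 counts in WT. The family members anmt-2 and anmt-1, the first named after its values were seen, did not pass, with log2 fold changes of 1.30 ± 0.47 (adjusted p = 0.165) and 0.32 ± 0.52. Without mutant replicate 1 the value of anmt-2 was 0.73 ± 0.49 (adjusted p = 0.602; range over its alternatives 0.0740 to 0.602). On the opposite strand, Y42G9A.1 shares 97 bases of exon with anmt-2, 8.71% of the exons of anmt-2. It had 31, 0 and 13 counts in the mutant and 12, 22 and 0 counts in WT. The muscle list took 4.54% to 9.68% of non-ribosomal counts in these mutant libraries and 0.454% to 0.515% in WT, and its part in the change of anmt-3 was not tested.

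The transhydrogenase gene nnt-1 (chromosome X, 6122311 to 6127554), whose mitochondrial enzyme passes electrons between NADH and NADPH, was named after its values were seen. It had 2.02, 4.198 and 7.99 CPM in the mutant and 13.2, 11.4 and 14.2 CPM in WT. A log2 fold change of -1.47 ± 0.42 missed the threshold (adjusted p = 0.0732). It did pass in 5 of 16 alternatives, with adjusted p from 0.000253 to 0.29 over all of them. The NAD kinase genes nadk-1 and nadk-2, which make NADP, had log2 fold changes of -0.46 ± 0.22 (adjusted p = 0.333) and -0.49 ± 0.28 (adjusted p = 0.446). Neither passed. The values of nadk-1 were 9.31 to 13.8 CPM in the mutant and 15.9 to 17.2 CPM in WT. Those of nadk-2 were 4.87 to 7.90 CPM in the mutant and 8.36 to 9.22 CPM in WT.

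In the list of NAD-consuming enzymes, 0 of 7 tested genes were called by edgeR, DESeq2 or limma-voom. In edgeR 0 had an unadjusted p under 0.05, and their median log2 fold change was 0.16. The list also held parg-1 (log2 fold change -0.53 ± 0.31, adjusted p = 0.460), whose glycohydrolase breaks down poly(ADP-ribose) and does not itself consume NAD. The smallest p belonged to the mitochondrial sirtuin gene sir-2.2, at 8.62, 5.27 and 6.70 CPM in the mutant and 3.21, 4.599 and 4.73 CPM in WT (log2 fold change 0.72 ± 0.33, adjusted p = 0.301). The sirtuin sir-2.1, the poly(ADP-ribose) polymerase parp-1 and the NADase tir-1 had log2 fold changes of 0.16 ± 0.23, -0.02 ± 0.36 and 0.53 ± 0.33. Of 6 tested genes in the list of synthesis from tryptophan, 0 were likewise called by any of these tools and 0 had an unadjusted p under 0.05 in edgeR. Their median change was 0.04 on the log2 scale. The kynurenine aminotransferase gene nkat-3, of a side branch to kynurenic acid, had the smallest p in the list (log2 fold change 0.63 ± 0.39, adjusted p = 0.493). The gene umps-1, which in C. elegans is known to make the nicotinic acid mononucleotide from quinolinic acid, had 3.87, 8.67 and 6.21 CPM in the mutant and 6.26, 7.41 and 5.38 CPM in WT (log2 fold change -0.03 ± 0.35). The enzymes kmo-2, afmd-1, nkat-1, sir-2.3, parg-2, acsd-1 and pnc-2 had too few reads to test, and ndx-9 had none in any library.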

How the data were processed

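The authors deposited a table of raw read counts per gene with a column per library. The submitters' processing notes name STAR, fastp 0.20.1, featureCounts, DESeq2 and Subread 2.0.0 without a role, and state no genome build, annotation or strand setting. Symbols, coordinates (1-based) and exon lengths came from the WBcel235 annotation (Ensembl release 115) by WormBase identifier, which matched 46919 of 46932 genes.

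Counts as deposited were tested over the whole table with edgeR 4.0.16 in R 4.3.3 (filterByExpr with minimum count 10 and minimum total 15, trimmed mean of M values, glmQLFit with robust=TRUE and glmQLFTest on the group), with a threshold of 0.05 on the Benjamini-Hochberg adjusted p. The procedure was tested on simulated counts. CPM used the same scaling over totals that include ribosomal RNA, and RPKM divided CPM by the union of exons in kilobases. Replicates of a group differed by more than sampling noise (chi-square per degree of freedom at least 7.85). Same-numbered libraries of the 2 groups gave no sign of pairing, which these few libraries cannot exclude, and were treated as unpaired.

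The members and lists were chosen with earlier results of these data known, so no list was tested as a set. Of the names given in the lists, pme-5 and opt-2 matched no gene. Named were the members, pcs-1, the called or else smallest-p gene of each other NAD list, the 5 profiles closest to pnc-1 (prior count 2, mean of at least 5 CPM) and overlapping genes; other genes are range ends, family or pathway partners, markers or neighbours, chosen after their values were seen. The alternatives were those named in the section on processing, with DESeq2 1.42.0 and limma 3.58.1.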

Additional observations from a re-analysis of the deposited data

How the results depend on the processing

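The counts of calls over all genes, the members and the other NAD lists were recomputed, as were the changes of the tested members, pcs-1, the 5 closest profiles, anmt-3, anmt-2, nnt-1, sir-2.2 and nkat-3. Levels, shares, ratios, marker lists and the other changes were not. The alternatives were a replicate block, DESeq2-type size factors, unscaled library totals, a filter of 5 CPM in 3 libraries or none, limma-voom, DESeq2, ribosomal RNA genes left out, muscle list genes left out, both libraries with the fewest genes left out and each library left out in turn. The members called higher numbered 1 in all of these except with the 5 CPM filter (2, with nprt-1 added) and without both libraries of fewest genes (0), and 0 were called lower throughout. The log2 fold change of qns-1 had the opposite sign with unscaled totals (0.0037, where the median over all genes was 0.11), without WT replicate 2 (0.082) and without mutant replicate 3 (0.086), and that of nmrk-1 without mutant replicate 1 (0.095), all with adjusted p of at least 0.946. Leaving out single libraries gave -0.21 to 0.086 for qns-1 and -0.43 to 0.095 for nmrk-1. In the list of other NAD handling, 1 gene (nnt-1) was called lower with the replicate block, no low-count filter, DESeq2, limma-voom and without mutant replicate 3. Over all genes, 1048 were called without a filter (727 higher, 321 lower) and 1039 by DESeq2 (339 lower). With unscaled totals 89 were lower, and without both libraries of fewest genes 56. Leaving out single libraries gave 416 to 697 genes called, 327 to 546 higher and 39 to 151 lower. The cause of these shifts was not tested. The replicate block, in which replicate numbers are shared between the groups, left 1 member called (pnc-1, 1.68 ± 0.30, adjusted p = 0.00664). Correlations of same-numbered libraries' deviations were 0.04, -0.02 and -0.07, which gave no sign of pairing but cannot exclude it. Low counts limit nmat-1 and nmrk-1, and counts per gene limit any statement on isoforms.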
